A study of Mus musculus with 2 samples.

Results

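The 9 genes described here form the core of the heat-producing programme of brown fat, out of 20003 genes in the deposited table. They are Ucp1, Cidea, Dio2, Prdm16, Ppargc1a, Ppargc1b, Ppara, Cox7a1 and Cox8b. They were chosen by name, with earlier results of these data known, and all 9 were in the table. Each had a mean level of at least 1 CPM (counts scaled to library size), the minimum used below, which 13939 genes reached.

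The series asked how blocking Hedgehog signalling alters macrophage transcripts, and it had 2 libraries. Cells for the first, labelled M2+GANT61, received 10 µM GANT61, an inhibitor of the GLI transcription factors, and cells for the other, labelled M2+DMSO, received the solvent. By their labels both were RAW 264.7, a macrophage line from mouse, and both had macrophage colony-stimulating factor (M-CSF) at 20 ng/mL overnight and then interleukin 4 (IL-4), which drives the alternative or M2 state, at 10 ng/mL, with GANT61 or DMSO added 4 h before IL-4. The labels name no genotype or passage, and they give the IL-4 exposure as 15 min in one text and as 24 h in another.

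Brown and beige adipocytes burn fuel for heat. Cold releases noradrenaline, which raises cyclic AMP through beta-adrenergic receptors, and this frees fatty acids and switches on Ucp1, whose product lets protons leak across the inner mitochondrial membrane. Prdm16 and the coactivators Ppargc1a and Ppargc1b set up the programme, Ppara drives fatty acid oxidation, Dio2 makes active thyroid hormone, and Cidea sits on lipid droplets. Cox7a1 and Cox8b encode forms of cytochrome c oxidase subunits found in heart, striated muscle and brown fat. Ucp1 is not a macrophage gene, while Ppargc1b is also known from macrophages given IL-4.

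The libraries held 57705874 reads for M2+GANT61 and 61632784 reads for M2+DMSO. Each treatment had 1 library, so treatments could not be tested and no p-value appears. Ratios are of M2+GANT61 over M2+DMSO, after TMM scaling, which sets the libraries to a common level over most genes, with 95% intervals that cover counting error only. A gene was called higher or lower if its ratio was at least 1.5 or at most the inverse, its interval excluded 1 and its mean was at least 1 CPM. By this rule 14.1% of the 13939 genes were higher and 10.3% lower. These are the shares beside which each list count below is to be read.

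Transcripts that mark adipocytes, fibroblasts, epithelium and endothelium were present in both libraries, against the label of a macrophage line. Fibroblast and preadipocyte markers summed to 8760 CPM in the M2+GANT61 library and 7887 CPM in the M2+DMSO library. Epithelial markers summed to 3521 CPM in the M2+GANT61 library and 4072 CPM in the M2+DMSO library, and endothelial markers to 684.5 CPM in the M2+GANT61 library and 821.8 CPM in the M2+DMSO library. The 16 general adipocyte markers summed to 1585 CPM in the M2+GANT61 library and 9091 CPM in the M2+DMSO library, with none at 0 reads in either. All 16 were lower in the M2+GANT61 library, at ratios of 0.107 to 0.241 and a median of 0.170. Fabp4, a fatty acid carrier, had a ratio of 0.159 (0.156 to 0.161), Car3 of 0.133 (0.131 to 0.1355), Lpl, lipoprotein lipase, of 0.222 (0.217 to 0.226) and Cfd, adipsin, of 0.196 (0.192 to 0.2001). All 12 macrophage markers were higher, summing to 7184 CPM in the M2+GANT61 library and 2711 CPM in the M2+DMSO library. In bulk RNA, fewer cells of a type and less RNA per cell cannot be told apart.

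Promoter sequence is shown for the 4 genes of the programme whose window, from 250 bases before to 50 bases after the RefSeq start, held TGACG, the core of the cyclic AMP response element (CRE). These windows (RefSeq, GRCm38.p6, the build called mm10) matter because cold acts on brown fat through cyclic AMP. The 250 bases before the start are printed 5′ to 3′, and capitals mark the motifs searched on both strands, which were TGACG, the full CRE TGACGTCA that contains it, the nuclear receptor hexamer AGGTCA, the TATA box TATAAA, and the box CCAAT.
Ucp1, chr8:83290098-83290347, plus strand: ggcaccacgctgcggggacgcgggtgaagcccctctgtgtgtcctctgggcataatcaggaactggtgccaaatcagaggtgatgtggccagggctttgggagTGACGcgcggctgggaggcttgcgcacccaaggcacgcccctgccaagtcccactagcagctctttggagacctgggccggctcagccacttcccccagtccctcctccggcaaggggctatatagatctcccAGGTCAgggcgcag
Dio2, chr12:90739039-90739288, minus strand: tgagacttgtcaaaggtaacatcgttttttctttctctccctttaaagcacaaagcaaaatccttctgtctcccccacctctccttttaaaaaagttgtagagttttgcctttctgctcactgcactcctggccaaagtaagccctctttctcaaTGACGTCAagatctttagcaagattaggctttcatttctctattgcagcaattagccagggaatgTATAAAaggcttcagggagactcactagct
Ppargc1a, chr5:51567726-51567975, minus strand: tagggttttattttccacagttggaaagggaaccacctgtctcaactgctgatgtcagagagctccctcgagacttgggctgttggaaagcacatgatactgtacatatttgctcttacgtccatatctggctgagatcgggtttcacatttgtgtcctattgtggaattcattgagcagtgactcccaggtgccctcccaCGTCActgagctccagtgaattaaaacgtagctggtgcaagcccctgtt
Ppara, chr15:85735526-85735775, plus strand: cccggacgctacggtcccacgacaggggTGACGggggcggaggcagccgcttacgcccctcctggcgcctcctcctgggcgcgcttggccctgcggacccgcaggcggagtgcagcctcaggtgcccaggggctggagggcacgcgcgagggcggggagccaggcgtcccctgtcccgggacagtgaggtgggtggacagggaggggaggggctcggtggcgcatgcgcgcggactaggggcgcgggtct

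Of the 7 windows searched, 4 held TGACG on either strand, against 21% of all 27025 promoters in the table. The full CRE was in 1 of the 7, that of Dio2, at 95 to 88 bases before the start, and in 1.88% of all promoters. Dio2 also held TATAAA at 30 to 25 bases before the start. TATAAA was in 14.2% of all promoters, and the other window with it was that of Cox8b, where it lay 5 to 10 bases after the annotated start. Ucp1 held AGGTCA at 14 to 9 bases before the start, and 16% of promoters held this hexamer. No window held AGGTCANAGGTCA, the direct repeat bound by PPAR and RXR pairs, which 0.0444% of all promoters held. CCAAT was in 2 windows, those of Prdm16 and Cox7a1, and in 37.9% of all promoters. The window of Ppara held 74.7% G or C and that of Dio2 44.7%, around a median of 52.7% over all promoters. A match is a description of letters and not evidence of binding. The RefSeq starts of Dio2 and Ppara lie apart from the GENCODE gene ends given for these genes, so their windows hold for the RefSeq transcript.

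In the deposited counts, 7 of the 9 thermogenic genes were lower in the M2+GANT61 library, 0 were higher and 2 were neither. Over all genes considered, 10.3% were lower. Of the 7, Ucp1, Ppargc1a, Ppara and Cox8b were below 1 CPM in the M2+GANT61 library, at 0.0704, 0.422, 0.598 and 0.915 CPM. They reached the minimum mean through the M2+DMSO library. The median log2 ratio of the 9 genes was -2.63, against -0.01 over the 13939 genes. The 9 genes were chosen with earlier results of these data known, so both comparisons are descriptions and not tests. Ratios ran over a wide range, as Ucp1 was 49.1-fold lower and Ppargc1b had a ratio of 1.11. The same reads divided by gene length and library size, as deposited RPKM, gave ratios of 0.0181 to 1.11 for these genes.

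The order of the 9 genes by RPKM, a level per gene length, differed between the libraries. In the M2+GANT61 library Dio2 led at 12.4 RPKM, followed by Cox7a1 at 3.61, Cox8b at 1.99, Cidea at 1.67 and Ppargc1b at 0.799. Prdm16 at 0.140, Ppara at 0.0628, Ppargc1a at 0.0506 and Ucp1 at 0.0338 were the lowest there. In the M2+DMSO library Cox8b led at 25.03 RPKM, followed by Dio2 at 14.1, Cidea at 11.4, Cox7a1 at 7.48 and Ucp1 at 1.87. Ppargc1b at 0.722, Ppara at 0.535, Ppargc1a at 0.319 and Prdm16 at 0.218 were the lowest there. By counting error alone, the 95% intervals of neighbours overlapped in the M2+GANT61 library for Cox8b and Cidea, for Ppara and Ppargc1a and for Ppargc1a and Ucp1, and for no neighbours in the M2+DMSO library.

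**Figure D1:**
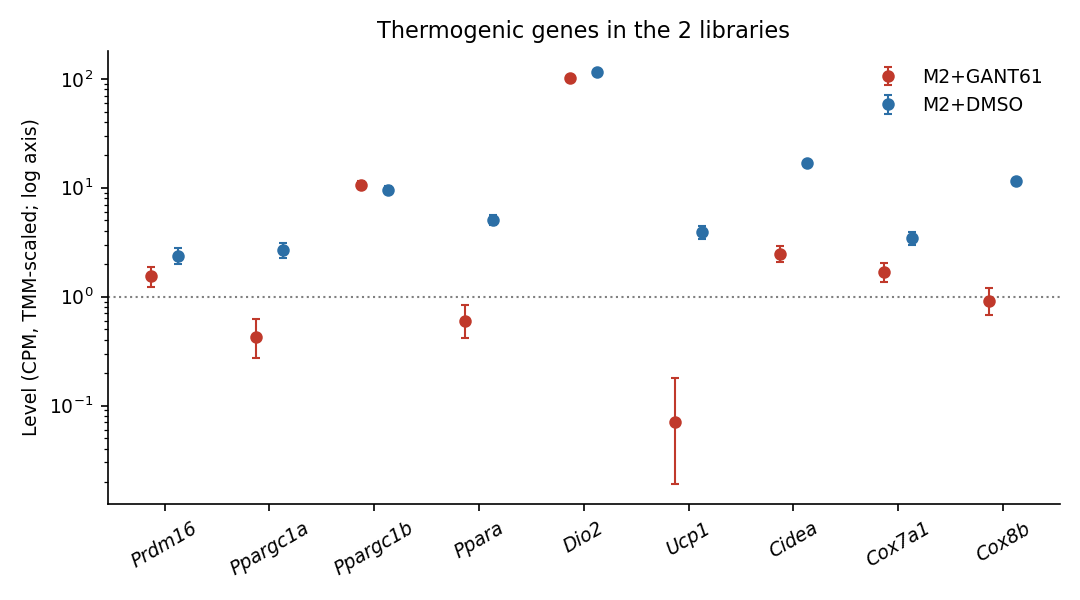
Level of each thermogenic gene in the M2+GANT61 library (red) and the M2+DMSO library (blue), in TMM-scaled CPM on a log axis, 1 library each, with 95% Poisson intervals for counting error and a dotted line at 1 CPM. Ucp1 shows the widest gap, at 0.0704 CPM for M2+GANT61 and 3.88 CPM for M2+DMSO, while the intervals of Ppargc1b overlap and Dio2 is at 101 CPM for M2+GANT61 and 114 CPM for M2+DMSO.

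Among the transcription regulators, Ppargc1a was lower and its relative Ppargc1b was not called. Ppargc1a, the coactivator induced by cold that drives Ucp1 and mitochondrial genes, had 24 reads in the M2+GANT61 library and 166 in the M2+DMSO library. Its ratio was 0.162 (0.0992 to 0.245). It lies on chromosome 5 at 51454250 to 51567726, minus strand (GENCODE M21, GRCm38, as for all genes placed here). Ppargc1b, which shares the coactivator's partners and supports mitochondrial gene expression, had 598 reads in the M2+GANT61 library and 593 in the M2+DMSO library. Its ratio was 1.11 (0.990 to 1.25), so its counting interval included 1.

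The balance of these coactivators can be read within each library, free of the scaling between libraries. For every 1000 Ppargc1b reads there were 40.1 Ppargc1a reads (25.5 to 60.3) in the M2+GANT61 library and 279.9 (234.2 to 333) in the M2+DMSO library. The within-library balance was thus 0.146 times as high in the M2+GANT61 library (0.0881 to 0.225). Pprc1, the remaining member of the coactivator family, had a ratio of 1.02 (0.966 to 1.07).

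Prdm16, the zinc finger protein that keeps precursor cells on the brown fat path, was lower by a narrow margin. It had 87 reads in the M2+GANT61 library and 148 in the M2+DMSO library, a ratio of 0.649 (0.491 to 0.849) beside the limit of 0.667. It lies on chromosome 4 at 154316125 to 154636873, minus strand. The annotation places exons of B230104I21Rik, on the opposite strand, over exons of Prdm16, and the strand setting of the counting is not given in the sources used here. Mecom, a close relative of Prdm16, had a ratio of 0.754 (0.687 to 0.826), which the rule did not call.

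Ppara, the nuclear receptor that turns on fatty acid oxidation, was 8.38-fold lower. It had 34 reads in the M2+GANT61 library and 318 in the M2+DMSO library, a ratio of 0.119 (0.0801 to 0.168). Its gene lies on chromosome 15 at 85734983 to 85802819, plus strand. Pparg, the receptor that all adipocytes need, had a ratio of 0.239 (0.217 to 0.262), and Ppard, which is expressed in many tissues, had 1.16 (1.09 to 1.23). Within a library, 14.6 Ppara reads stood beside 1000 Ppard reads in the M2+GANT61 library (10.1 to 20.4), against 143 in the M2+DMSO library (127 to 161). Beside 1000 Pparg reads there were 63.1 Ppara reads (43.2 to 89.25) in the M2+GANT61 library and 127.9 (113.4 to 143.8) in the M2+DMSO library. That balance changed by a factor of 0.499 (0.332 to 0.714).

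Dio2, the deiodinase that makes active thyroid hormone inside the cell, was the most abundant of the 9 by reads and was not called. It had 5730 reads, or 101 CPM, in the M2+GANT61 library and 7156 reads, or 114 CPM, in the M2+DMSO library. Its ratio was 0.882 (0.852 to 0.913), short of the rule though its interval excluded 1. It supplied 84.7% of the reads of the 9 genes in the M2+GANT61 library and 67.5% in the M2+DMSO library. Dio2 lies on chromosome 12 at 90724552 to 90738438, minus strand. Its exons overlap an antisense noncoding gene in the annotation, Gm26512, that has no row of its own in the table. Dio3, the deiodinase that inactivates thyroid hormone, was higher, with 163 reads in the M2+GANT61 library and 63 in the M2+DMSO library and a ratio of 2.84 (2.12 to 3.87).

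Ucp1, the uncoupling protein that defines brown and beige fat, had the smallest ratio of the 9. It had 4 reads in the M2+GANT61 library and 243 in the M2+DMSO library, a ratio of 0.0204 (0.0049 to 0.0470). Only 3 of the 13939 genes considered had a smaller ratio. The level in the M2+GANT61 library, 0.0704 CPM, was close to the 0.0528 CPM that a count of 0 allows (3 reads). In the M2+DMSO library Ucp1 stood at 1.87 RPKM, above 41.2% of the genes with reads there. Ucp1 lies on chromosome 8 at 83290352 to 83298452, plus strand.

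The uncoupling protein family split. Ucp3, found in muscle and brown fat, had 27 reads in the M2+GANT61 library and 452 in the M2+DMSO library, a ratio of 0.0669 (0.0429 to 0.0970). Ucp2, broadly expressed and abundant in immune cells, had 30030 reads in the M2+GANT61 library and 26221 in the M2+DMSO library and a ratio of 1.26 (1.24 to 1.28), below the threshold. Slc25a30 was higher at 1.66 (1.5 to 1.84), and Slc25a14 and Slc25a27 were neither, at 1.03 (0.901 to 1.19) and 0.893 (0.712 to 1.12). Within each library, Ucp1 reads per 1000 Ucp2 reads were 0.133 (0.0363 to 0.341) for M2+GANT61 and 9.27 (8.13 to 10.5) for M2+DMSO.

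Cidea, a lipid droplet protein that enlarges droplets and is enriched in brown fat, was 6.75-fold lower. It had 140 reads in the M2+GANT61 library and 1044 in the M2+DMSO library, a ratio of 0.148 (0.123 to 0.176). Cidec, its relative in white and brown adipocytes, had 2570 reads in the M2+GANT61 library and 16458 in the M2+DMSO library. Its ratio was 0.172 (0.165 to 0.179), and it is also 1 of the 16 adipocyte markers. Cidea reads per 1000 Cidec reads were 54.5 (45.6 to 64.6) in the M2+GANT61 library and 63.4 (59.5 to 67.5) in the M2+DMSO library. That balance differed by a factor of 0.861 (0.711 to 1.03), an interval that includes 1. Cideb, the family member of liver and gut, had 10 reads in the M2+GANT61 library and 13 in the M2+DMSO library and was below the minimum level.

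**Figure D2:**
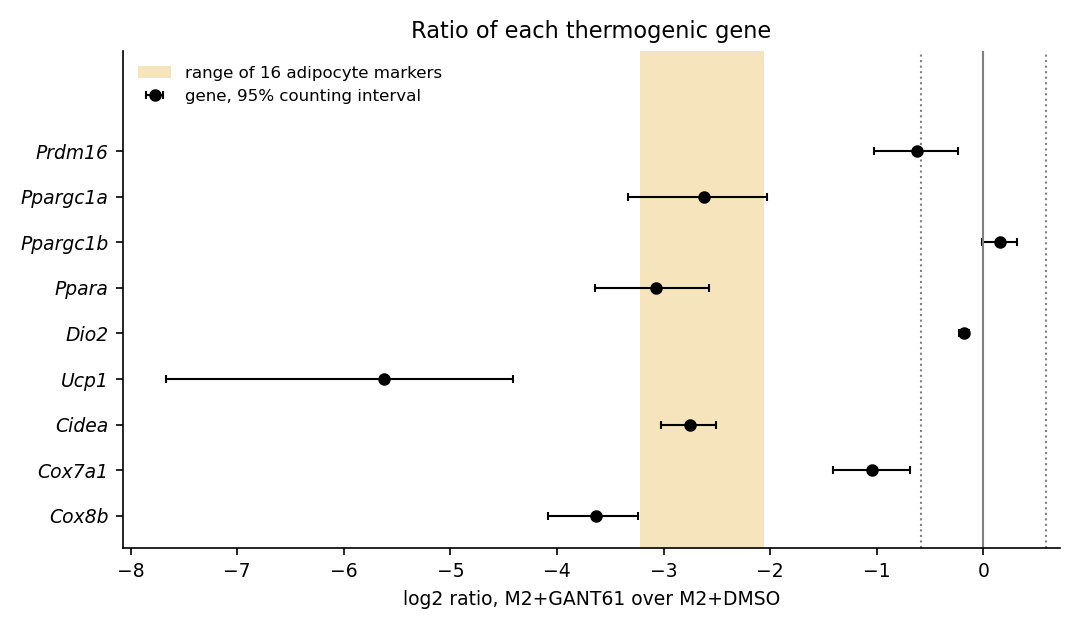
log2 ratio of each thermogenic gene, M2+GANT61 over M2+DMSO, with 95% intervals for counting error, dotted lines at the 1.5-fold limits and a band for the range of the 16 adipocyte markers. The points of Cidea, Ppargc1a and Ppara fall inside the band, and those of Ucp1 and Cox8b lie left of it. Those of Prdm16, Cox7a1, Dio2 and Ppargc1b lie right of it. The intervals of Ppargc1a and Ppara reach beyond the band.

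Both tissue-restricted cytochrome c oxidase forms were lower, Cox8b much more than Cox7a1. Cox8b had 52 reads in the M2+GANT61 library and 717 in the M2+DMSO library, a ratio of 0.0806 (0.0591 to 0.106), and 17 genes considered had a smaller one. Cox7a1 had 95 reads in the M2+GANT61 library and 216 in the M2+DMSO library, a ratio of 0.486 (0.376 to 0.619). Both genes lie on chromosome 7, Cox7a1 at 30184144 to 30186078 on the plus strand and Cox8b at 140898945 to 140900446 on the minus strand. By RPKM, Cox8b was the highest of the 9 genes in the M2+DMSO library, at 25.03, and at 1.99 in the M2+GANT61 library it stood below Dio2 and Cox7a1.

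The broadly used counterparts of these subunits were not called. Cox7a2 had a ratio of 0.995 (0.961 to 1.03) and Cox8a of 0.812 (0.793 to 0.831). Cox7a2l, a further relative of Cox7a1, was not called either, at 0.893 (0.873 to 0.9135). For every 1000 Cox8a reads there were 4.14 Cox8b reads (3.09 to 5.43) in the M2+GANT61 library and 42.1 (39.0 to 45.3) in the M2+DMSO library, a change of 0.0993 (0.0727 to 0.131). For every 1000 Cox7a2 reads there were 15.95 Cox7a1 reads (12.9 to 19.5) in the M2+GANT61 library and 32.8 (28.5 to 37.5) in the M2+DMSO library, a change of 0.488 (0.377 to 0.624). On the per-length scale, Cox8b stood at 6.21 per 1000 units of Cox8a RPKM in the M2+GANT61 library and 63.2 in the M2+DMSO library.

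Of the 15 cytochrome c oxidase subunit genes considered, 2 were lower, 1 higher and 12 neither, with a median log2 ratio of -0.16. Over all genes considered, 10.3% were lower and 14.1% higher. The lower subunits were Cox7a1 and Cox8b. The higher one was Cox6a2, the heart and muscle form of another subunit, with 164 reads in the M2+GANT61 library and 41 in the M2+DMSO library and a ratio of 4.37 (3.11 to 6.37). Cox6a2 reads per 1000 Cox6a1 reads were 13.9 (11.8 to 16.2) in the M2+GANT61 library and 2.32 (1.66 to 3.15) in the M2+DMSO library. Cox6a2 therefore differed in the opposite direction to Cox7a1 and Cox8b. Cox4i2 reads per 1000 Cox4i1 reads were 4.40 (3.54 to 5.40) in the M2+GANT61 library and 4.92 (4.15 to 5.78) in the M2+DMSO library, with overlapping intervals. Cox4i2 was picked out after its value was seen.

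**Figure D3:**
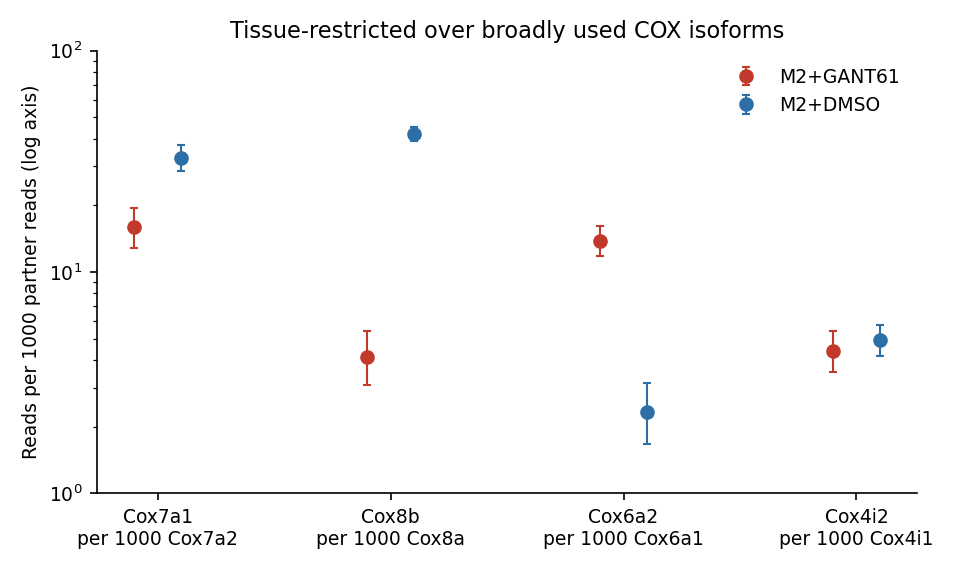
Reads of each tissue-restricted cytochrome c oxidase (COX) form per 1000 reads of its broadly used counterpart within the M2+GANT61 library (red) and the M2+DMSO library (blue), on a log axis, 1 library each, with 95% exact binomial intervals. Cox8b and Cox7a1 sit lower and Cox6a2 higher for M2+GANT61, while the Cox4i2 intervals overlap.

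Since Cox7a1, Cox8b and Ppargc1a are also used in striated muscle, muscle markers were read beside them. Of 18 considered, 14 were higher and 2 lower, with a median log2 ratio of 1.34. The shares over all genes considered were 14.1% higher and 10.3% lower. Cox6a2, given above, is on both lists and is 1 of the 14 higher. The 24 measured summed to 129 CPM in the M2+GANT61 library and 58.6 CPM in the M2+DMSO library. Myh4, a fast myosin heavy chain, had a ratio of 4.93 (4.34 to 5.64), Atp2a1 of 3.65 (3.17 to 4.24), Neb of 3.49 (3.03 to 4.05) and skeletal actin Acta1 of 2.63 (2.31 to 2.998). The lower ones were Tnnc1, at 0.144 (0.111 to 0.182), and Myl1, at 0.542 (0.449 to 0.651). Tnnc1 and Myl1 were singled out after their values were seen. The part of muscle transcripts in the values of Cox7a1, Cox8b and Ppargc1a was not tested.

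Set against the adipocyte markers, the 9 genes fell into 3 groups, which describe these libraries and were formed after the values were seen. By ratio alone, 3 of the 9 were within the range of the 16 adipocyte markers (Cidea, Ppargc1a and Ppara). Below it were 2 (Ucp1 and Cox8b) and above it 4 (Cox7a1, Prdm16, Dio2 and Ppargc1b). The counting interval of Ppargc1a (0.0992 to 0.245) passed both ends of that range, and that of Ppara (0.0801 to 0.168) its lower end. That of Cox8b (0.0591 to 0.106) overlapped that of Gpd1 (0.102 to 0.112), the marker with the lowest ratio. Of the white fat markers named below, Nnat at 0.0754 and Lep at 0.101 were also below the range, and Retn and Sncg were not. Per 1000 reads of the 16 markers summed, there were 0.0444 Ucp1 reads in the M2+GANT61 library and 0.427 in the M2+DMSO library, a change of 0.117 (0.0281 to 0.270). For Cox8b the change was 0.462 (0.339 to 0.608). Both genes were therefore lower per adipocyte-marker read, which restates their place below the range of the markers.

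For Cidea this change was 0.850 (0.705 to 1.01) and for Ppargc1a 0.930 (0.569 to 1.41), and both intervals include 1. Ppara had 0.684 (0.460 to 0.964), but per read of Adipoq alone, the adiponectin gene, it had 0.791 (0.530 to 1.12), and per read of Plin1 alone, which coats fat droplets, 0.855 (0.572 to 1.21). The other 4 genes, whose ratios lay above the range of the markers, were higher per adipocyte-marker read. Cox7a1 had 2.79 (2.16 to 3.55), Prdm16 3.72 (2.82 to 4.87), Dio2 5.06 (4.88 to 5.24) and Ppargc1b 6.37 (5.68 to 7.15). Which cells carried any of these transcripts was not tested.

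**Figure D4:**
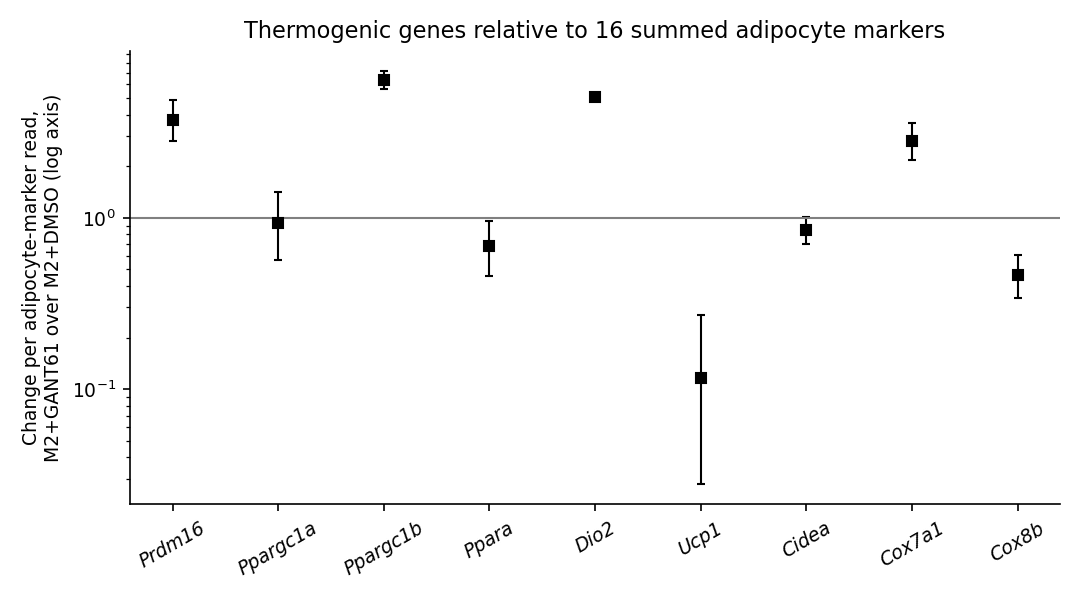
Change of each thermogenic gene per read of the 16 summed adipocyte markers, M2+GANT61 over M2+DMSO, on a log axis with 95% intervals for counting error and a line at 1. Ucp1 is at 0.117 and Cox8b at 0.462, Cidea and Ppargc1a lie across 1, and Prdm16, Ppargc1b, Dio2 and Cox7a1 lie above 1.

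Signals that feed the programme were lower in part. Of 20 cold and hormone input genes considered, 7 were lower, 2 higher and 11 neither, with a median log2 ratio of -0.41. The shares over all genes considered were 10.3% lower and 14.1% higher. Adrb3, the beta-adrenergic receptor of mouse adipocytes, had 402 reads in the M2+GANT61 library and 2652 in the M2+DMSO library, a ratio of 0.167 (0.150 to 0.186). Adrb3 is also 1 of the 16 adipocyte markers. Prkar2b, a protein kinase A subunit abundant in fat, had a ratio of 0.290 (0.276 to 0.304), and Thra, a thyroid hormone receptor, of 0.534 (0.503 to 0.566). Adcy3, an adenylyl cyclase, was higher at 1.98 (1.88 to 2.09).

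Of 13 transcription partners considered, 4 were lower, 1 higher and 8 neither, with a median log2 ratio of 0.03. Among all genes considered, 10.3% were lower and 14.1% higher. Pparg, given above and 1 of the 4 lower, is also 1 of the 16 adipocyte markers. Ebf2, a selector of brown fat precursors, had 149 reads in the M2+GANT61 library and 522 in the M2+DMSO library, a ratio of 0.315 (0.260 to 0.378). Cebpa, an adipocyte factor also used in myeloid cells, had 0.553 (0.537 to 0.570). Irf4, which partners Ppargc1a in brown fat and is also induced by IL-4 in macrophages, was higher at 2.86 (2.64 to 3.09). Of 8 repressors of the programme, 0 were higher and, beside 10.3% of all genes considered, 2 were lower. These were Zfp423, which holds white adipocytes back from the brown fate, at 0.547 (0.464 to 0.641), and Twist1, which restrains Ppargc1a targets, at 0.634 (0.583 to 0.688).

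Of 15 brown fat effectors considered, 7 were lower, 2 higher and 6 neither, with a median log2 ratio of -0.57. Beside them, 10.3% of all genes considered were lower and 14.1% higher. A further 6 of the 21 effectors were below the minimum level. Gpd1, of the glycerol phosphate shuttle and also an adipocyte marker here, had a ratio of 0.107 (0.102 to 0.112). Pdk4, which spares glucose, had 0.135 (0.120 to 0.151) and S100b 0.239 (0.200 to 0.284). Trpv2, a calcium channel also found in macrophages, was higher at 1.99 (1.86 to 2.13). Otop1, a proton channel of brown fat, had 7 reads in the M2+GANT61 library and 291 in the M2+DMSO library, a ratio of 0.0283 (0.0106 to 0.0553). The remaining higher gene was Elovl3, a fatty acid elongase, at 3.42 (2.69 to 4.42). Zic1, a marker of classical brown fat, had 1 read in the M2+GANT61 library and 3 in the M2+DMSO library. Otop1, Elovl3 and Zic1 were picked out after their values were seen.

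Beige fat markers had 5 lower and 2 higher of 9 considered, with a median log2 ratio of -1.07. For this list and the next, the shares over all genes considered were 10.3% lower and 14.1% higher. Slc36a2, an amino acid transporter, had a ratio of 0.125 (0.110 to 0.141) and Aqp7, a glycerol channel, of 0.144 (0.120 to 0.170). The higher ones were Tmem26 at 8.05 (7.27 to 8.96) and Tnfrsf9, a receptor also induced on activated immune cells, at 2.87 (2.71 to 3.03). White fat markers had 7 lower and 0 higher of 8, with a median of -2.15. Among them were Nnat at 0.0754 (0.0683 to 0.0830), Lep, the hormone leptin, at 0.101 (0.0890 to 0.114), Retn, resistin, at 0.163 (0.153 to 0.173) and Sncg at 0.311 (0.292 to 0.330).

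Targets of Ppara had 12 lower, 0 higher and 10 neither of 22 considered, with a median log2 ratio of -0.74. Beside them, 10.3% of all genes considered were lower and 14.1% higher. The lists share genes, and Ucp3 and Pdk4, given above, are among these 12. Acadm, Acaa2, Hadhb and Acadvl, enzymes of fatty acid oxidation, had ratios of 0.410 (0.396 to 0.424), 0.563 (0.542 to 0.585), 0.550 (0.534 to 0.566) and 0.583 (0.565 to 0.601). Mitochondrial biogenesis genes, which Ppargc1a is known to drive, had 0 of 15 called in either direction and a median of -0.13. Lrpprc and Gabpa, the most abundant of them, had ratios of 0.911 (0.872 to 0.953) and 0.931 (0.893 to 0.972).

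Genes of heat cycles that do not use Ucp1 had 6 higher and 2 lower of 13 considered, with a median log2 ratio of 0.43. Among all genes considered, 14.1% were higher and 10.3% lower. Gatm, which starts creatine synthesis, had a ratio of 1.55 (1.52 to 1.58), Slc6a8, the creatine transporter, 1.87 (1.78 to 1.97) and Atp2a2, a calcium pump, 1.56 (1.53 to 1.59). Gamt, which completes creatine synthesis, was lower at 0.631 (0.557 to 0.714). Of the 6 higher ones, Atp2a1, given above, and Ryr1, at 2.12 (1.79 to 2.51), are also muscle markers. They were the 2 that stayed higher with a fold of at least 2. Ryr1 was named after its value was seen.

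**Figure D5:**
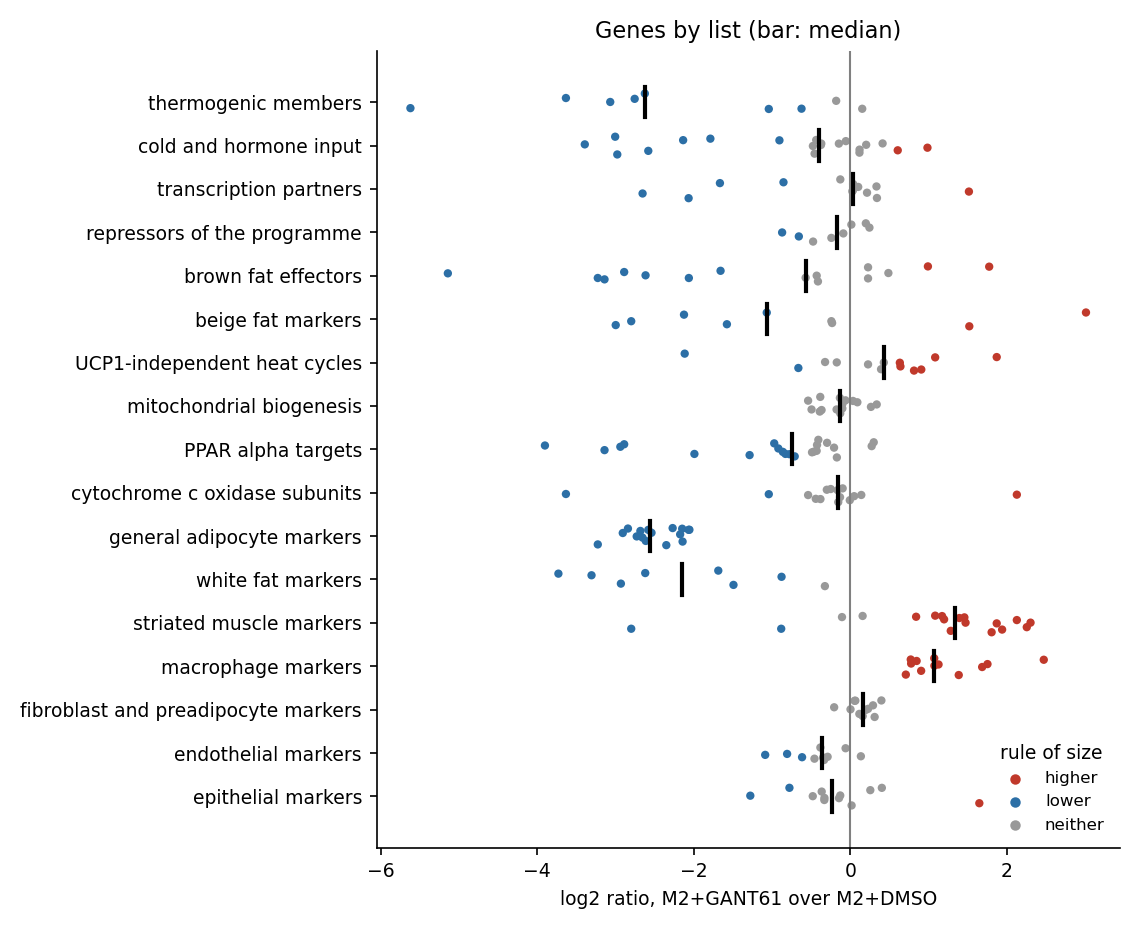
log2 ratio of every gene considered in each list, M2+GANT61 over M2+DMSO, 1 point per gene, coloured by the rule of size, with a black bar at each list's median. The thermogenic genes, adipocyte and white fat markers lie mostly left of 0, mitochondrial biogenesis genes near 0, and muscle and macrophage markers mostly right of 0.

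The other cell types were read the same way beside the thermogenic genes, with 10.3% lower and 14.1% higher over all genes considered. Fibroblast and preadipocyte markers had 0 of 11 called and a median log2 ratio of 0.16, and of these Col3a1 had 1.12 (1.11 to 1.12) and Col1a2 1.08 (1.07 to 1.09). Endothelial markers had 3 of 10 lower and a median of -0.37, among them Cldn5 at 0.471 (0.441 to 0.502), Tek at 0.571 (0.529 to 0.616) and Egfl7 at 0.652 (0.613 to 0.693). Epithelial markers had 2 lower and 1 higher of 12 and a median of -0.24, with Krt18 at 0.583 (0.575 to 0.591), Csn2 at 0.412 (0.394 to 0.431) and Krt5 higher at 3.13 (3.04 to 3.22). None of these lists approached the median of -2.56 of the adipocyte markers. The part of any cell type in the lower thermogenic transcripts was not tested.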

How the data were processed

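The 2 libraries of messenger RNA were read on an Illumina HiSeq. The authors deposited 2 tables, of which the first holds estimated counts per gene without normalization. The second table deposited by the authors holds RPKM values, which divide reads by gene length and library size. Partek, SAMtools, cutadapt, HISAT2 and STAR are named in the submitters' processing notes, as are hg19 and mm10. Roles and versions of these, the annotation, the counter and the strand setting are not given in the sources used here. Columns were tied to libraries by the treatment in their names, whose numbers did not match those of the sample titles.

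Counts were rounded and scaled by TMM (edgeR 4.0.16, R 4.3.3). Ratios used a prior count of 0.5, and their intervals are exact Clopper-Pearson at 95% (scipy 1.17.1). Levels have Poisson intervals, and within-library ratios have exact binomial intervals and their changes exact conditional ones. All intervals, and the 3 counts that a count of 0 allows, cover counting error only. Reads carry no molecular identifiers. A run on simulated counts checked the arithmetic only. Those counts had Poisson noise alone and changes only in genes with high counts, so changes at low counts were not covered. DESeq2 1.42.0 size factors, library totals, upper quartile scaling, RPKM and other thresholds were alternatives.

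The thermogenic genes and the 19 lists were chosen with earlier results of these data known. Within 19 lists, 5 entries were missing from the table. Named from each list were up to 4 called genes of highest mean CPM, or up to 2 where none was called, and every gene of the uncoupling protein and relatives lists. Macrophage markers are given as a sum, and genes outside this rule, other than the denominators Adipoq, Plin1, Cox4i1 and Cox6a1, are stated as chosen after their values were seen. Sequences are from RefSeq GRCm38.p6, where 7 of the thermogenic genes were used, and Cidea and Ppargc1b were not. Python 3.11.15, numpy 2.4.6, pandas 2.3.3 and matplotlib 3.10.9 were also used.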

Additional observations from a re-analysis of the deposited data

How the results depend on the processing

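No paired analysis was possible because each treatment had 1 library, so leaving out a library was not possible either. The 7 lower thermogenic genes numbered 7 under DESeq2 size factors, library totals, upper quartile scaling, RPKM and no minimum level, and 0 were higher under every setting run. With a fold of at least 2 they numbered 6, and with a mean of at least 5 CPM only 2, because the lower level of the others leaves them out. Each thermogenic ratio stayed within its counting interval under every scaling and prior count run (54 of 54 values). Over all genes a fold of at least 2 gave 595 lower and 972 higher. Calls by RPKM used the ratio alone, with 0.01 added to each value and no interval, and kept the minimum mean in CPM.

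Per adipocyte marker, Cidea was 1.06 with Plin1 alone, Dio2 5.85 with Adipoq and 6.32 with Plin1, and Ppargc1b 7.36 and 7.96. Of 252 list counts under alternatives, 229 equalled the reported count or were within 1.5 times it. Counts of 0 that stayed at 0 are among the 229, so this number overstates how stable the counts were. With a mean of at least 5 CPM the lower ones numbered 0 among uncoupling proteins, 4 among brown fat effectors, and 1 each among UCP1-independent cycles, cytochrome c oxidase subunits and muscle markers. The higher ones then numbered 1 among effectors, 0 among oxidase subunits, 0 among relatives of the thermogenic genes and 7 among muscle markers. With a fold of at least 2 the lower ones numbered 0 among repressors, 6 among Ppara targets, and 1 each among UCP1-independent cycles, muscle, endothelial and epithelial markers. The higher ones then numbered 0 among uncoupling proteins, 0 among input genes, 1 among effectors, 2 among UCP1-independent cycles and 7 among macrophage markers. Input genes had 1 higher under library totals and 1 under upper quartile scaling, and fibroblast markers had 1 lower with no minimum level. These differences follow from the changed thresholds or scaling.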
